A study of Mus musculus with 15 samples.

Results

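A set of 10 genes that mark the subfields of the mouse hippocampus was followed through every library of the study, as a measure of how evenly the tissue had been dissected. The genes were listed by name as markers and not by a threshold on these counts: Wfs1, Fibcd1 and Mpped1 for CA1, Bok, Iyd and Grik4 for CA3, and Prox1, C1ql2, Dsp and Lct for the dentate gyrus, out of 37310 genes in the count table. All 10 passed the filter on low counts (more than 10 reads in more than 5 libraries), which 18008 genes passed in all. The libraries were poly(A)-selected RNA from the hippocampus of wild-type C57BL/6J males aged 2 months, every one of which had been handled on 3 days. FC mice received contextual fear conditioning, a single foot shock of 1.5 mA lasting 2 s that ended 2.5 min after they entered the chamber, and tissue was taken 30 min later. RT mice had the same conditioning and were returned to the chamber 24 h later for a 5 min retrieval test, with tissue taken 30 min after it. CC mice were handled, never trained, and dissected at the same time of day. Each group had 5 libraries, numbered 3, 5, 6, 7 and 8, which the labels call biological replicates.

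The hippocampus is a folded sheet in which dentate granule cells send mossy fibers to CA3 pyramidal cells, CA3 cells project to CA1, and CA1 sends output to the subiculum. The principal neurons of each subfield express different genes, so in RNA from a whole hippocampus the level of a subfield marker depends both on how much of that subfield the piece contained and on how much of the transcript its cells made. In bulk RNA, fewer cells of a type and less RNA per cell cannot be told apart.

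Total counts ranged from 35731428 to 62555543 per library. Counts were divided by an upper-quartile (UQ) factor for each library and are called UQ counts below. 3 libraries stood apart. Over all tested genes, the median distance of a library from the other libraries of its group (FC3 and RT3 left out of those averages) was 0.64 on the log2 scale for FC3 and 0.33 for RT3, against 0.076 to 0.11 for the other 13. CC8 lay at 0.11 over all genes but at 0.44 over the 10 marker genes, the largest median of any library for the markers, and results are therefore given with and without these 3 libraries. A list of 8 choroid plexus genes also differed between libraries: their summed UQ count was 3902 to 52483 in FC, 2516 to 14728 in RT and 1884 to 2586 in CC. None of the 8 was at 0 throughout. At the false discovery rate used below, 7 of them were higher in FC than CC, 1 in RT than CC and 4 in FC than RT. Of all tested genes, 2.24%, 1.01% and 0.122% passed in these comparisons, in either direction. The part of that tissue in the marker results was not tested.

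Levels per unit of length, in counts per kilobase of exon scaled to the library total (FPKM), fell into 2 bands over the 13 libraries other than FC3 and RT3. Mpped1 had the highest median at 65.9 FPKM, followed by C1ql2 at 62.7, Bok at 55.3, Wfs1 at 46.8 and Fibcd1 at 45.9, and each of these 5 overlapped its neighbor in the order over the libraries. A gap followed, with Grik4 at 13.7, Prox1 at 9.71, Lct at 9.13, Dsp at 5.15 and Iyd at 3.03. In this lower band, Grik4 overlapped Prox1 and Prox1 overlapped Lct, whereas Lct and Dsp, and Dsp and Iyd, did not overlap. Mpped1 exceeded 95.6% of tested genes in length-scaled level and Iyd exceeded 41.5%. Every subfield therefore had at least 1 marker in the upper band.

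**Figure D1:**
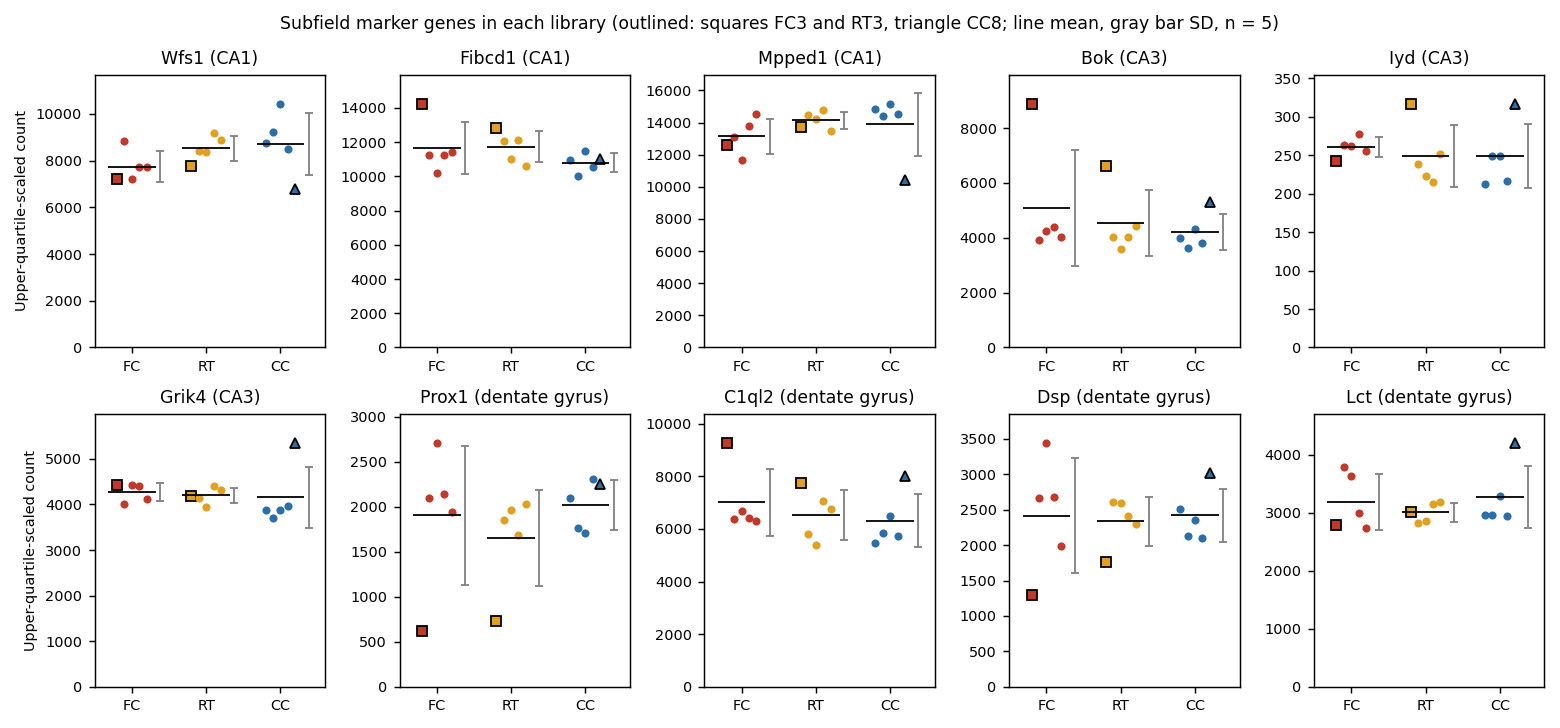
UQ counts (vertical axis) of the 10 marker genes in each library of FC, RT and CC (horizontal axis), with the group mean as a line and the SD as a gray bar (n = 5). CC8 (triangle) lies below the other CC libraries for Wfs1 and Mpped1 and above them for Bok, Iyd, Grik4, C1ql2, Dsp and Lct, while FC3 and RT3 (squares) lie lowest for Prox1 (622 and 733) and highest for Bok (8887 and 6604).

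Of the CA1 markers, Wfs1 (chr5:37357343-37380221 in mm9, minus strand) encodes wolframin, a membrane protein of the endoplasmic reticulum. Its UQ counts were 7195, 8847, 7219, 7723 and 7734 in FC3, FC5, FC6, FC7 and FC8, 7780, 8404, 8376, 9193 and 8884 in RT libraries of the same numbers, and 8733, 9215, 10433, 8513 and 6765 in CC. The CC group alone held both the lowest and the highest library, CC8 and CC6, and the 3 groups overlapped. Mpped1 (chr15:83609897-83688924, plus strand), a metallophosphoesterase family member, had 12613, 13102, 11678, 13758 and 14537 UQ counts in FC, 13722, 14483, 14219, 14787 and 13479 in RT, and 14840, 14420, 15171, 14563 and 10435 in CC. CC8 was the lowest of all 15 libraries for Mpped1, and the other 4 CC libraries lay above every FC library except FC8. Fibcd1 (chr2:31668810-31701525, minus strand), a transmembrane receptor that binds acetylated groups such as those of chitin, did not share that pattern: CC8 had 10999 UQ counts, within the 10028 to 11493 of the other CC libraries. FC3 and RT3 were highest for Fibcd1, with 14238 and 12812.

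Of the CA3 markers, Grik4 (chr9:42326218-42752576, minus strand) encodes a kainate receptor subunit found at mossy fiber synapses. It had 4417, 4003, 4434, 4397 and 4128 UQ counts in FC, 4188, 4137, 3952, 4399 and 4307 in RT, and 3875, 3711, 3885, 3968 and 5346 in CC. CC8 was above all 14 other libraries, and the remaining CC libraries were below every FC library and, apart from CC7, below every RT library. Bok (chr1:95582271-95592339, plus strand), a BCL2 family member linked to cell death, had 8887, 3909, 4235, 4377 and 4028 UQ counts in FC, 6604, 4021, 3608, 4044 and 4433 in RT, and 3991, 3627, 4303, 3794 and 5305 in CC. FC3, RT3 and CC8 were its highest 3 libraries, in that order, and no other library exceeded 4433. Iyd (chr10:6791664-6806301, minus strand), which encodes the iodotyrosine deiodinase that recycles iodide in the thyroid, was the lowest marker, with 242 to 278 UQ counts in FC, 215 to 317 in RT and 213 to 316 in CC. RT3 and CC8 were its highest libraries, at 317 and 316. Without FC3 and RT3, the 4 FC libraries (256 to 278) lay above the 4 RT libraries (215 to 251), and Iyd was the 1 marker of 10 whose FC and RT groups then did not overlap, against 3.60% of tested genes.

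Of the dentate markers, Prox1 (chr1:191945660-191994559, minus strand) encodes the homeobox transcription factor that specifies granule cells. Its UQ counts were 622, 2095, 2707, 2142 and 1947 in FC, 733, 1856, 1960, 1686 and 2033 in RT, and 2098, 1759, 1706, 2308 and 2250 in CC. FC3 and RT3 were at less than any other library, and FC6 was highest. The noncoding gene Gm17566 on the opposite strand shares 133 exonic bases with Prox1. C1ql2 (chr1:122237159-122239748, plus strand), a secreted C1q-like protein of mossy fiber synapses, had 9266, 6377, 6666, 6419 and 6321 UQ counts in FC, 7732, 5793, 5382, 7059 and 6757 in RT, and 5477, 5843, 6509, 5746 and 8003 in CC. Here FC3, CC8 and RT3 were highest, so FC3 and RT3 held the lowest values of one granule cell marker and raised values of another. Dsp (chr13:38243197-38290446, plus strand), desmoplakin of cell junctions, had 1291, 2661, 3441, 2682 and 1986 UQ counts in FC, 1759, 2612, 2590, 2418 and 2293 in RT, and 2514, 2126, 2350, 2094 and 3016 in CC. Dsp followed Prox1, lowest in FC3 and RT3 and highest in FC6, and it shares 360 exonic bases with Gm10129 on the opposite strand. Lct (chr1:130181333-130224895, minus strand), the lactase of the intestine, had 2741 to 3782 UQ counts in FC, 2824 to 3193 in RT and 2949 to 4202 in CC, with CC8 at the top.

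The pattern of CC8 followed the subfields. Relative to the mean of the other 4 CC libraries, UQ counts in CC8 were 0.736-fold for Wfs1 and 0.708-fold for Mpped1, but 1.02-fold for Fibcd1. All 3 CA3 markers were higher, at 1.35-fold for Bok, 1.37-fold for Iyd and 1.39-fold for Grik4, and so were all 4 dentate markers, at 1.15-fold for Prox1, 1.36-fold for C1ql2, 1.33-fold for Dsp and 1.38-fold for Lct. A distance as large as that of Mpped1 was reached by 7.73% of tested genes in CC8 and one as large as that of Dsp by 10.5%. Among the 13 libraries other than FC3 and RT3, CC8 was outermost for 7 of 10 markers, against 22.2% of tested genes. It was the highest for 5 markers (Bok, Iyd, Grik4, C1ql2 and Lct), where 12.9% of tested genes had CC8 highest, and the lowest for 2 (Wfs1 and Mpped1), where 9.30% of tested genes had it lowest. These are descriptions of 1 library without a test.

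Other genes of the same subfields, listed separately from the markers, were also displaced in CC8. Of 6 further CA1 genes tested, CC8 was lowest of the 13 libraries for 4, Dcn, Man1a and Nov among them, with a median log2 deviation of -0.40. Nov, a secreted matricellular protein, had 3666 UQ counts in CC8, against 6861 to 7742 in the other CC libraries. All 3 subiculum genes were lowest in CC8: Slc17a6, the vesicular glutamate transporter VGLUT2, had 384 UQ counts against 996 to 1145, Nts, the neuropeptide neurotensin, had 149 against 307 to 324, and Fn1, fibronectin, had 2547 against 3542 to 4052. The summed subiculum UQ count was 3387 to 4363 in FC, 3683 to 5183 in RT and 3079 to 5507 in CC, with CC8 at the bottom and none of the 3 genes at 0. Of 6 further CA3 genes, CC8 was highest for 2, and Homer3, a synaptic scaffold protein, had 3015 UQ counts in it against 1892 to 2066 in the other CC libraries. Of 13 further dentate genes, CC8 was highest for 6 and lowest for 1 (Trhr), and of 3 genes of hilar mossy cells it was highest for 2 (Calb2 and Csf2rb2). Of the 8 CA2 genes, CC8 was highest for 3 (Amigo2, Ccdc3 and Rgs14) and lowest for 1 (Pcp4). Outside the subfields, CC8 was highest for 3 of 5 genes of excitatory neurons (Camk2a, Neurod2 and Slc17a7). The summed UQ count of these 5 genes was 407490 in CC8 against 335116 to 357297 in the other CC libraries. Interneuron genes went both ways: of 6, CC8 was lowest for 3 (Gad1, Gad2 and Vip) and highest for 1 (Npy), with a median log2 deviation of -0.091. Gad1 had 15324 UQ counts in CC8, close to the 15595 to 16413 of the other CC libraries. CC8 was neither highest nor lowest for any of 6 oligodendrocyte genes. Over 13746 tested genes with a mean UQ count of at least 100, Spearman's rho between exonic G+C content and the deviation of CC8 was 0.36, and over the 10 markers it was -0.22. The genes in this paragraph, apart from Pcp4, were picked for mention after their values were seen, and the part of neighboring tissue in the CC8 values was not tested.

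**Figure D2:**
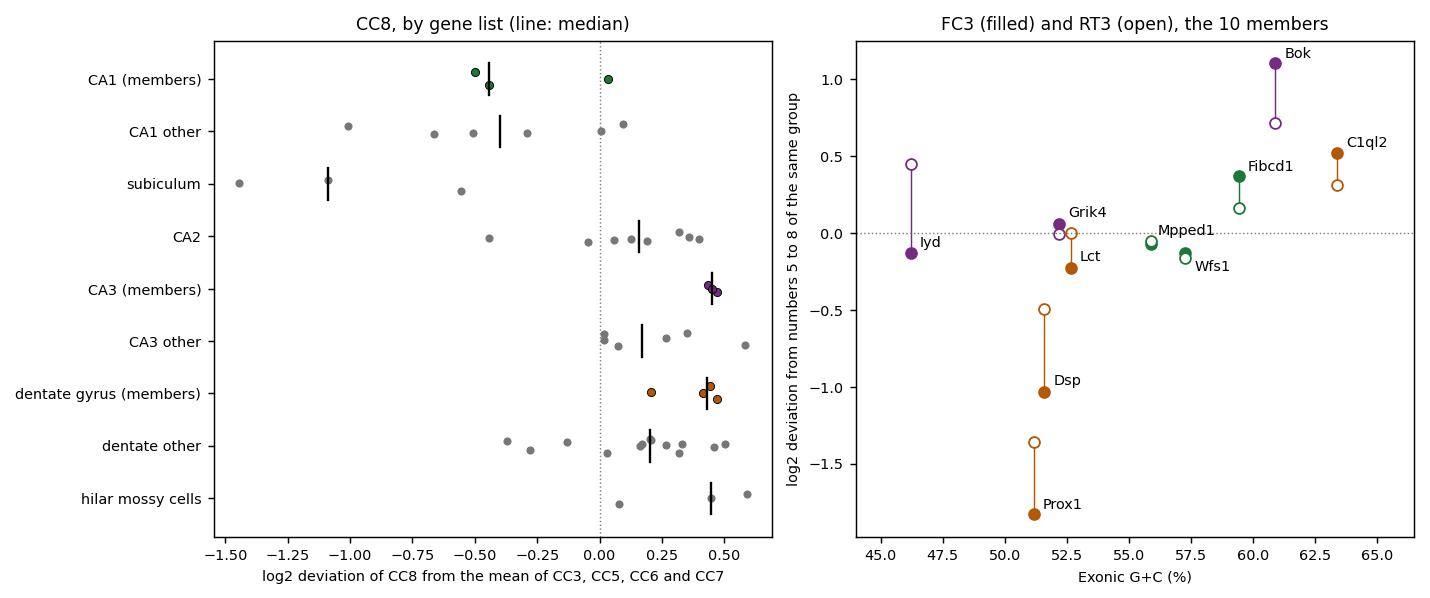
Left, log2 deviation of CC8 from the mean of the other CC libraries (horizontal axis) for each tested gene of 9 lists, with the list median as a line: subiculum genes have a median of -1.09, the CA1 markers -0.44, the CA3 markers 0.45 and the dentate markers 0.43. Right, log2 deviation of FC3 (filled) and RT3 (open) from numbers 5 to 8 of their own group (vertical axis) against exonic G+C content (horizontal axis) for the 10 markers, joined by a line for each gene: Bok, C1ql2 and Fibcd1, with the highest G+C, lie above 0 in both libraries, and Prox1 and Dsp lie farthest below.

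FC3 and RT3 did not follow the subfields. Within the dentate gyrus, Prox1 was displaced by -1.82 (FC3) and -1.36 (RT3) on the log2 scale and Dsp by -1.03 and -0.49, whereas C1ql2 was displaced by 0.52 and 0.32. Within CA3, Bok was displaced by 1.10 in FC3 and 0.72 in RT3, but Grik4 by 0.060 and -0.0026. Both libraries were the lowest of the series for Prox1 and Dsp and the highest for Bok and Fibcd1. FC3 was outermost of 14 libraries (RT3 left out) for 5 of 10 markers, against 79.6% of tested genes, with FC3 highest for 39.3% and lowest for 40.3%. RT3 was outermost (FC3 left out) for 5 of 10, against 66.1%, with RT3 highest for 35.9% and lowest for 30.3%. All 6 oligodendrocyte genes were highest in FC3 and in RT3, with summed UQ counts of 414758 and 367128 against 238774 to 285042 in the other 13 libraries. The displacement moved with base composition and length: over the same 13746 genes, rho between exonic G+C content and displacement was 0.45 for FC3 and 0.38 for RT3, and between exonic length and displacement it was -0.55 and -0.63. Over the 10 markers, rho with G+C was 0.82 for FC3 and 0.43 for RT3, and rho with length was -0.45 and -0.56. These are correlations across genes of 1 library, where genes are not independent replicates. For genes under 45% G+C the median displacement was -0.58 in FC3 and -0.22 in RT3, and for genes at 60% or more it was 0.66 and 0.31. Prox1 and Dsp lie between 50% and 55% G+C, where the median displacement of genes was 0.19 in FC3 and 0.13 in RT3, opposite in sign to theirs. Both are longer than the median tested gene, with 4133 and 9625 exonic bases against 3253. The part of base composition, length or oligodendrocyte RNA in the marker values was not tested.

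Exons of C1ql2 contain 63.4% G+C over 1997 bases and those of Prox1 contain 51.2% over 4133 bases, with a median of 49.98% and 3253 bases for all tested genes. The last 120 coding bases before the stop codon of C1ql2 (chr1:122239029-122239148, plus strand, in the last coding exon) and of Prox1 (chr1:191947102-191947221, minus strand, likewise) are shown because these dentate markers were displaced in opposite directions, which was not tested against their sequence, with every G and C in capitals.
C1ql2: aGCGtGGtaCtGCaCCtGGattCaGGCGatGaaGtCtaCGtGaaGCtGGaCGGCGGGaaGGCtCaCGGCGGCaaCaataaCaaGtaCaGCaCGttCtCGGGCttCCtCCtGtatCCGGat
Prox1: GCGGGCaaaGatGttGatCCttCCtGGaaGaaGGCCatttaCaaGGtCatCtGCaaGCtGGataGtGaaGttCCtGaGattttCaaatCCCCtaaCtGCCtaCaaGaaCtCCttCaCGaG
Capitals make up 68 of the 120 bases (56.7%) in C1ql2 and 56 (46.7%) in Prox1. The genome and exon positions are those of mm9 with the matching Ensembl annotation.

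A score for each subfield was taken as the mean log2 deviation of its markers from the mean of all 15 libraries. CC8 had a CA1 score of -0.24, a CA3 score of 0.31 and a dentate score of 0.36, and the differences between its scores, which do not depend on the scaling of the library, were 0.60 for dentate minus CA1 and 0.55 for CA3 minus CA1. For CA3 minus CA1 the other CC libraries lay between -0.23 and -0.18. FC6 showed a related imbalance with CA3 near 0: CA1 at -0.19, CA3 at 0.021 and dentate at 0.36, so that dentate minus CA1 was 0.55. Relative to FC5, FC7 and FC8 (FC3 left out), the dentate markers of FC6 were unevenly raised, at 1.42-fold for Dsp and 1.31-fold for Prox1, but 1.15-fold for Lct and 1.05-fold for C1ql2. C1ql2 in FC6 (6666 UQ counts) was below FC3 (9266). FC6 was highest of the 13 libraries for 2 markers (Prox1 and Dsp), against 7.31% of tested genes, and also for 4 of 6 oligodendrocyte and 3 of 6 astrocyte genes. FC8 stood on the other side, at -0.55 for Dsp and -0.33 for Lct. FC6 and FC8 were picked for mention after their values were seen. FC3 had a dentate minus CA3 score of -0.84 and RT3 of -0.67, values in which the opposite displacements of markers within a subfield are averaged.

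**Figure D3:**
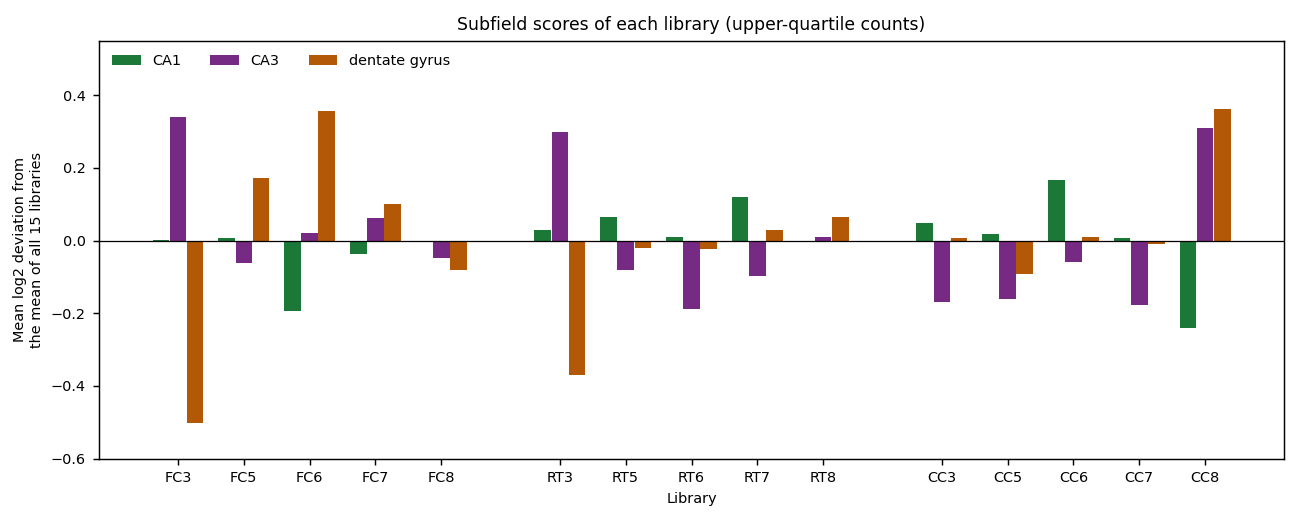
Mean log2 deviation of the CA1, CA3 and dentate markers from the mean of all 15 libraries (vertical axis) in each library (horizontal axis), in UQ counts. CC8 combines a low CA1 score (-0.24) with high CA3 (0.31) and dentate (0.36) scores, and FC3 and RT3 have the lowest dentate scores (-0.50 and -0.37).

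With all 15 libraries, group averages of the balance differed by less than the pooled SD between replicates. The dentate minus CA1 difference was 0.052 ± 0.39 in FC, -0.11 ± 0.18 in RT and 0.056 ± 0.31 in CC (mean ± SD, n = 5 each). CA3 minus CA1 was 0.11 ± 0.17 in FC, -0.055 ± 0.20 in RT and -0.051 ± 0.34 in CC. Dentate minus CA3 was -0.054 ± 0.47 in FC, -0.053 ± 0.35 in RT and 0.11 ± 0.061 in CC. The libraries that stood apart set much of this spread. Without FC3 and RT3, and relative to the mean of the other 13 libraries, CA3 minus CA1 was 0.095 ± 0.13 in FC and -0.090 ± 0.11 in RT (n = 4 each), a gap larger than either SD, with RT8 (0.061) inside the FC range. CA3 minus CA1 was then -0.0044 ± 0.34 in CC (n = 5), but CC8 stood at 0.60 and the other 4 CC libraries at -0.18 to -0.13, below all 4 FC libraries (-0.023 to 0.26). Dentate minus CA1 was 0.12 ± 0.26 in FC, -0.10 ± 0.075 in RT and -0.014 ± 0.31 in CC, with CC8 at 0.53 and the rest of CC at -0.23 to -0.086. Dentate minus CA3 was 0.027 ± 0.17 in FC, -0.015 ± 0.052 in RT and -0.0098 ± 0.061 in CC. Since the score averages chosen genes, no test was made of it.

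Pairs of markers from one subfield were all positively correlated over the 13 libraries, but so were all 12 pairs of a CA3 and a dentate marker. These are given as a description of values that share libraries and scaling. After subtraction of group means, all 3 pairs of CA3 markers had a Pearson r between 0.73 and 0.90, the 3 CA1 pairs between 0.20 and 0.76, and the 6 dentate pairs between 0.070 and 0.75. Pairs of a CA1 and a CA3 marker had a median r of -0.52, pairs of a CA1 and a dentate marker -0.51, and pairs of a CA3 and a dentate marker 0.59. The last of these was above the median of the dentate pairs, 0.46. Much of this rested on CC8. Without it the medians between subfields were -0.072, -0.19 and 0.20. The CA3 pairs then ranged from -0.073 to 0.71, the CA1 pairs from 0.29 to 0.77 and the dentate pairs from -0.25 to 0.54.

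The spread of most markers between replicates was wide compared with other genes. Over the 13 libraries the pooled within-group SD of log2 UQ counts was 0.082 for Fibcd1 and 0.15 to 0.23 for the other 9 markers, with a median of 0.089 for tested genes with a mean of at least 100. Each of those 9 exceeded at least 81.8% of these genes. When CC8 was also left out, Grik4 dropped to an SD of 0.062, above 24.8% of genes, and Mpped1 to 0.086, above 51.3%, while Dsp stayed at 0.21 and Prox1 at 0.18, above 94.2% and 91.3%.

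Whether conditioning or retrieval was accompanied by a shift in the markers was tested with the model of the study, edgeR with UQ factors and 5 RUVs factors (factors of unwanted variation estimated from replicates and 625 negative control genes), at a false discovery rate (FDR) of 0.01. None of the 10 markers passed in FC against CC, where 2.24% of tested genes passed, in RT against CC, where 1.01% passed, or in FC against RT, where 0.122% passed. With the library number as a block, which the FC and RT libraries share, 0.455% of genes and again 0 markers passed in FC against RT, and 0 markers passed in FC against CC (2.53% of genes) or RT against CC (1.18%). At an unadjusted p under 0.05, 1 marker was past the threshold in FC against CC, 0 in RT against CC and 3 in FC against RT, where 16.5%, 11.1% and 10.7% of all tested genes were. The quasi-likelihood test of edgeR called 0 markers in each comparison, among 0.544% of genes in FC against CC, 0.367% in RT against CC and 0.0% in FC against RT, and DESeq2 called 0 among 0.967%, 0.472% and 0.0222%. The comparisons FC against CC and RT against CC share the CC libraries.

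Log2 fold changes of the markers lay between -0.15 and 0.10 in FC against CC, between -0.15 and 0.076 in RT against CC, and between -0.12 and 0.21 in FC against RT, with standard errors of 0.038 to 0.098. The median log2 fold change of the markers was 0.047 in FC against CC, -0.027 in RT against CC and 0.068 in FC against RT, beside -0.014, -0.0012 and -0.014 over all tested genes. No 95% interval of a marker in this model extended beyond -0.30 or 0.36. In all 15 libraries 0 markers had groups that did not overlap, against 0.961% of tested genes in FC and CC, 1.35% in RT and CC and 0.228% in FC and RT, and without FC3 and RT3 the count was 0 against 3.07% in FC and CC and 0 against 2.02% in RT and CC.

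Wfs1 averaged 7744 ± 670 UQ counts in FC, 8527 ± 540 in RT and 8732 ± 1327 in CC (SD, n = 5 each). Its log2 fold change in FC against CC was -0.15 (SE 0.059, edgeR adjusted p = 0.148) and in FC against RT -0.12 (SE 0.058, adjusted p = 0.446). Prox1 averaged 1903 ± 772 UQ counts in FC, 1654 ± 531 in RT and 2024 ± 278 in CC, or 2223 ± 334 in FC and 1884 ± 150 in RT without FC3 and RT3 (n = 4 each). The log2 fold change of Prox1 in FC against RT was 0.21 (SE 0.077, edgeR adjusted p = 0.223), the largest of any marker. Mpped1 had -0.10 in FC against RT (SE 0.046, adjusted p = 0.389 by edgeR).

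Single libraries decided whether 3 of the markers were called. Without CC8, the same model called Wfs1 in FC against CC at a log2 fold change of -0.24 (edgeR adjusted p = 0.00519) and Mpped1 at -0.17 (adjusted p = 0.00121), among 3.63% of 17971 genes. Both are CA1 markers, and CC8 was their lowest CC library. Without RT8, Prox1 was called in FC against RT at 0.28 (edgeR adjusted p = 0.00942), among 0.511% of genes. With 10 RUVs factors in place of 5, Wfs1 was called in FC against CC (-0.15, adjusted p = 0.00355) and in FC against RT (-0.14, adjusted p = 0.00995), among 2.48% and 0.605% of genes. With UQ factors alone 0 markers were called in any comparison, where 0.189% of genes passed in FC against CC, 0.106% in RT against CC and 0.0% in FC against RT. UQ factors alone also called 0 markers without FC3 and RT3 (0.616%, 0.37% and 0.0% of genes in the same order), without CC8 (0.189%, 0.1% and 0.0%) and without all 3 (1.08%, 0.562% and 0.0%).

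**Figure D4:**
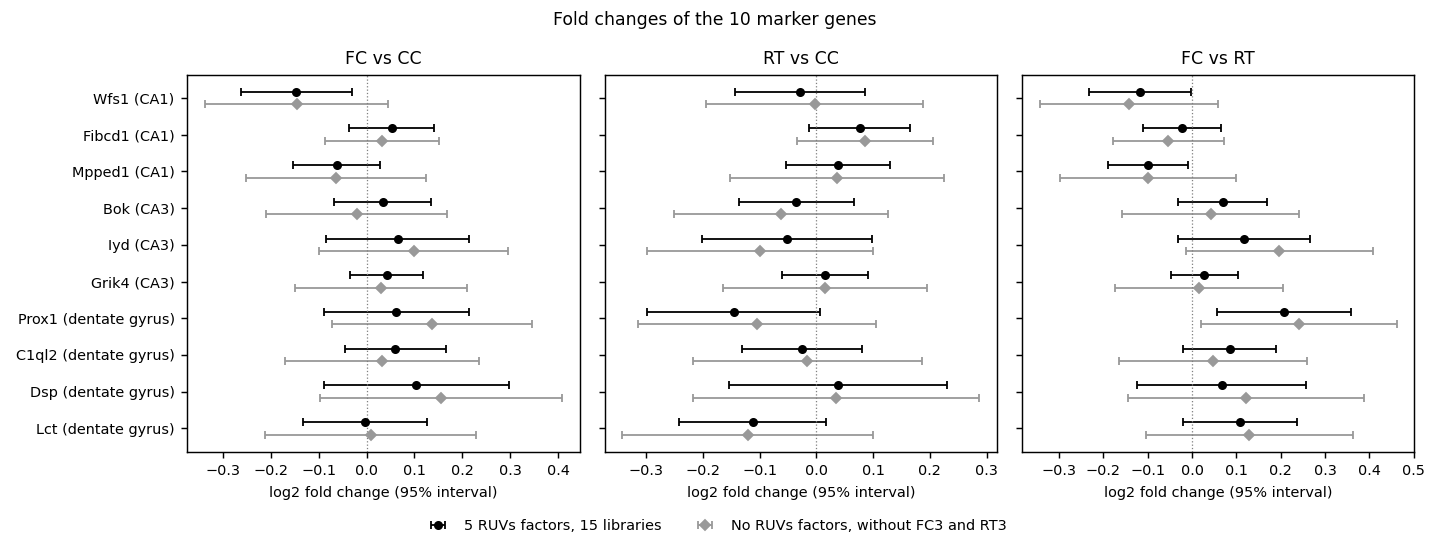
Log2 fold changes (horizontal axis) with 95% intervals of the 10 markers in 3 comparisons, from the model with 5 RUVs factors on all 15 libraries (black circles) and with UQ factors alone on the 13 libraries other than FC3 and RT3 (gray diamonds). In the RUVs model the values lie between -0.15 and 0.21, and the interval excludes 0 for Wfs1 in FC against CC and for Wfs1, Mpped1 and Prox1 in FC against RT, none of which passed after adjustment.

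The RUVs factors were estimated from deviations within the groups of these same libraries. A smaller distance of the most displaced libraries after adjustment therefore follows from how the factors were made. Before the adjustment, the median absolute log2 deviation of the 10 markers was 0.44 in CC8, 0.30 in FC3 and 0.24 in RT3. In RUVs-adjusted values it was 0.0086 in CC8, 0.023 in FC3 and 0.095 in RT3. The median over all tested genes fell too, from 0.11 to 0.014 in CC8, 0.64 to 0.019 in FC3 and 0.33 to 0.055 in RT3. For the markers it rose in FC8 (0.069 to 0.092), RT5 (0.063 to 0.075) and RT7 (0.098 to 0.105). In FC6 the dentate markers kept a mean deviation of 0.20, against 0.29 before. These deviations are distances from the rest of the group, and the fold changes above still depended on CC8. In FC against CC, Mpped1 was at -0.062 with all 15 libraries and -0.17 without CC8, and Wfs1 at -0.15 and -0.24. With UQ factors alone, the standard errors of the markers were 0.13 to 0.29 and log2 fold changes reached 0.28 (Bok, FC against CC) and -0.29 (Prox1, RT against CC), with every 95% interval including 0.

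Of 34 further subfield genes listed, 33 were tested: the CA1 gene Pou3f1 had no counts in any library. In FC against CC, 1 passed (Pcp4), in RT against CC 0 and in FC against RT 0. At an unadjusted p under 0.05, 2 CA1, 2 CA2 and 3 dentate genes were past the threshold in FC against CC (16.5% of all tested genes), 1 CA2 and 1 dentate gene in RT against CC (11.1%), and 1 CA1 and 1 dentate gene in FC against RT (10.7%). The same threshold was passed by 0 of the CA3 genes in each comparison, and edgeR's quasi-likelihood test and DESeq2 called 0 in each comparison. Pcp4, a small calmodulin-binding protein expressed in CA2 and in the dentate gyrus, had 980, 297, 331, 226 and 492 UQ counts in FC, 543, 233, 293, 291 and 515 in RT, and 280, 262, 297, 241 and 198 in CC. FC3, FC8, RT3 and RT8 were above all other libraries, and the rest of FC and RT overlapped CC. Its log2 fold change was 0.41 in FC against CC (SE 0.096, edgeR adjusted p = 0.00162) and 0.31 in RT against CC (SE 0.096, adjusted p = 0.0634). Without FC8 the first of these was 0.27 (adjusted p = 0.0525), without RT8 0.39 (adjusted p = 0.0150), and with UQ factors alone 0.86 (adjusted p = 0.784).

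In the further CA1, CA3 and dentate lists no gene passed. The 6 CA1 genes tested had a median log2 fold change of -0.033 in FC against CC, 0.032 in RT against CC and -0.048 in FC against RT. Crym, a thyroid hormone-binding protein, was opposite in sign to that median in FC against CC, at 0.083 (SE 0.034, edgeR adjusted p = 0.149). Its p-value was not the smallest of the CA1 list. The 13 dentate genes had a median of 0.027 in FC against CC, -0.028 in RT against CC and 0.040 in FC against RT. The smallest p-value among them was for Tox3, a transcription factor, at -0.22 in FC against CC (edgeR adjusted p = 0.0554). Of the 6 CA3 genes, Socs2, an inhibitor of cytokine signaling, had -0.078 and Dkk3, a secreted protein of the Dickkopf family, had -0.039, both in RT against CC (edgeR adjusted p = 0.497 and 0.742).

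Lists of subiculum, striatum, neocortex and thalamus genes were also compared between groups. In FC against CC, 1 of 4 neocortex and 1 of 4 thalamus genes tested were past an unadjusted p of 0.05, against 16.5% of all tested genes. After adjustment 0 of them passed, against 2.24%. The subiculum and striatum lists held more such genes. All 3 subiculum genes were past an unadjusted p of 0.05 in FC against CC, with a median log2 fold change of -0.29, and in FC against RT, also with -0.29, and 0 were in RT against CC, with 0.012. Of all tested genes, 16.5%, 10.7% and 11.1% were past it in the same order. The changes in FC against CC were -0.31 for Slc17a6 (SE 0.098, edgeR adjusted p = 0.0423), -0.29 for Nts (SE 0.093, adjusted p = 0.0423) and -0.11 for Fn1 (SE 0.040, adjusted p = 0.112), so that none passed at 0.01. In FC against RT, Nts had -0.35 (SE 0.091, edgeR adjusted p = 0.0292). With UQ factors alone, 0 of the 3 were past 0.05 in FC against CC or FC against RT, where 3.07% and 0.677% of tested genes were. Of 6 striatal genes, 5 were past an unadjusted p of 0.05 in FC against CC (16.5% of all tested genes), with a median of -0.27, and 1 passed after adjustment (2.24%). That gene, Gpr6, an orphan receptor of striatal neurons, had 40, 35, 36, 28 and 30 UQ counts in FC, 49, 42, 38, 41 and 51 in RT, and 53, 51, 51, 57 and 56 in CC. All FC libraries were below all CC libraries for Gpr6, and its log2 fold change was -0.72 (SE 0.16, edgeR adjusted p = 0.000277), or -0.67 with UQ factors alone (adjusted p = 0.216). These genes were picked for mention after their values were seen, and the part of neighboring tissue in the marker comparisons was not tested.

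Genes whose deviations from group means were most like those of the markers were sought among 13736 other genes with a mean of at least 100, over the 13 libraries. For the CA1 markers these were Ass1 (r = 0.95), Adcy8 (0.95), Klhdc8a (0.94), Gdpd5 (0.93) and Casz1 (0.93), with r of 0.55 to 0.86 over all 15 libraries. For the CA3 markers they were Camkk1 (0.97), Ptk2b (0.96), Cnnm1 (0.96), 2510003E04Rik (0.96) and Gak (0.95), with r of -0.38 to 0.29 over all 15. For the dentate markers they were Ermp1 (0.94), Kbtbd11 (0.93), Il1r1 (0.93), Abr (0.92) and Osbp2 (0.91), with r of 0.91 to 0.96 over all 15. Without CC8 as well, r was 0.83 to 0.92 for the CA1-like genes, 0.77 to 0.90 for the CA3-like genes and 0.82 to 0.89 for the dentate-like genes, over 12 libraries. In CC8 the first CA1-like gene Ass1, the argininosuccinate synthase, deviated by -0.29, the CA3-like Camkk1, a kinase of calmodulin-dependent kinases, by 0.29, and Il1r1, the interleukin-1 receptor, by 0.50 on the log2 scale. These genes were chosen by r over libraries that include CC8, so the directions of their CC8 values follow from the choice. The 12 libraries without CC8 also took part in choosing them, so those r values are not independent of it either.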

How the data were processed

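The deposited table holds raw counts per gene. Per the labels and the methods, the authors mapped paired reads to mm9 with GSNAP, kept unique concordant pairs and counted Ensembl genes with HTSeq 0.6.1. All 37310 genes matched the annotation, and 0 columns were left out. The kit is not stated to keep strand. The 18008 genes exceeding 10 reads in over 5 libraries were tested with edgeR 4.0.16 in R 4.3.3 (negative binomial model, likelihood ratio test, Benjamini-Hochberg adjustment, FDR of at most 0.01) with UQ factors and 5 RUVs factors, all 15 libraries in one fit. Alternatives were UQ factors alone, other numbers of factors, DESeq2 1.42.0, other filters, a replicate block and libraries left out. The fits with UQ factors alone that left out CC8, with or without FC3 and RT3, were added after seeing the data, as was the balance without CC8, FC3 and RT3. The RUVs fit without CC8 belonged to the fits that left out each library in turn. Log2 values used a pseudocount of 0.5. The script was tested on simulated data. The markers, gene lists and tests were chosen with earlier results of these data known. Named genes were all 10 markers, genes of the other subfield lists past the threshold (otherwise the 2 with the smallest p), and the 5 genes most like each subfield; some genes under this rule are not reported here. Same-numbered FC and RT libraries deviated from their group means together (r of 0.251 to 0.864, 5 pairs, or 0.0932 to 0.472 for 4 pairs without number 3). Differently numbered FC and RT libraries overlapped that range, with a median r of 0.139 and a maximum of 0.506, or -0.0641 and 0.137 without number 3. Same-numbered FC and CC (-0.305 to 0.236) or RT and CC (-0.32 to 0.0942) libraries had r of either sign. Without number 3, FC and CC reached 0.195, against a maximum of 0.0923 for different numbers. P-values of the main model measure the spread between these libraries that was left after 5 RUVs factors estimated from the same libraries. Per the methods, each library came from both hippocampi of a single mouse, though the labels do not name the animals.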

Additional observations from a re-analysis of the deposited data

Results flagged for a closer look

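In groups of 5 libraries, 48 sets of values (10 markers and 6 scores in 3 groups) were screened for a library far from the rest, and 14 were found. Chance alone would flag about 1 in 20 such sets, and the 48 are not independent of each other.

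CC8 accounted for 7. Mpped1 had 10435 UQ counts in CC8 (14420 to 15171 in the other CC libraries), Grik4 had 5346 (3711 to 3968) and Lct had 4202 (2949 to 3289). The CA3 score of CC8 was 0.31, the dentate score 0.36, dentate minus CA1 0.60 and CA3 minus CA1 0.55.

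FC3 and RT3 accounted for 6. Bok had 8887 UQ counts in FC3 (3909 to 4377 in the rest of FC) and 6604 in RT3 (3608 to 4433 in the rest of RT). C1ql2 had 9266 in FC3 (6321 to 6666) and Prox1 had 733 in RT3 (1686 to 2033). The dentate score of RT3 was -0.37 and its dentate minus CA3 score -0.67. The remaining value was the CA1 score of FC6, -0.19, with -0.036 to 0.0079 in the other FC libraries.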

How the results depend on the processing

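The difference between groups in each subfield balance moved by less than its pooled SD with all 15 libraries under every alternative run. That SD includes FC3, RT3 and CC8, which widen it, so staying within it does not show that the balance was stable. With single libraries left out, FC minus CC ran from -0.13 to 0.14 for dentate minus CA1. For CA3 minus CA1 it ran from 0.10 to 0.31. The signs of 14 marker or Pcp4 fold changes, counted per comparison, reversed in at least 1 alternative fit. Over all fits there were 56 such reversals, 26 of them with 1 library left out, and 0 passed the threshold in either the main or the alternative fit. With UQ factors alone, log2 fold changes in FC against CC were -0.0047 for Dsp and -0.089 for Prox1, and in RT against CC 0.11 for Bok, 0.0044 for Iyd, 0.052 for C1ql2 and -0.052 for Dsp. Lct in FC against CC was 0.0042 with 10 factors, 0.013 with TMM, 0.0053 with DESeq2, 0.0028 without the count filter and 0.055 without FC3 and RT3, where Wfs1 was 0.0056 in RT against CC. With UQ factors alone and without FC3 and RT3, Bok was -0.021 and Lct 0.0085 in FC against CC. In fits chosen after seeing the data, with UQ factors alone and without CC8, Lct was 0.070 and Prox1 -0.047 in FC against CC, and Mpped1 was -0.060, Bok 0.21, Iyd 0.11 and C1ql2 0.15 in RT against CC. Without CC8, FC3 and RT3, Lct was 0.12 in FC against CC, and Mpped1 was -0.049, Bok 0.036 and C1ql2 0.085 in RT against CC. With a replicate block and UQ factors alone, Dsp was -0.067 and Prox1 -0.25 in FC against CC, and Bok 0.064, Iyd 0.0077, C1ql2 0.042 and Dsp -0.083 in RT against CC. The replicate block with RUVs factors called 0 markers in each comparison, 2 further subfield genes (Pcp4 and Tox3) in FC against CC and 1 in RT against CC (Pcp4, 0.37, edgeR adjusted p = 2.26e-05). Same-numbered libraries of FC and CC, and of RT and CC, had correlations of either sign. The causes of these differences were not tested.

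With single libraries left out, log2 fold changes in FC against CC ranged from -0.058 to 0.10 for Lct, -0.011 to 0.23 for Dsp and -0.022 to 0.14 for Prox1. In RT against CC they ranged from -0.12 to 0.052 for Wfs1, -0.013 to 0.11 for Grik4, -0.0031 to 0.14 for Dsp, -0.069 to 0.063 for Mpped1, -0.063 to 0.042 for Bok, -0.10 to 0.040 for Iyd and -0.066 to 0.060 for C1ql2, and in FC against RT from -0.062 to 0.0060 for Fibcd1, -0.031 to 0.19 for Dsp and -0.053 to 0.26 for Pcp4. Markers called ranged from 0 to 2 in FC against CC and 0 to 1 in FC against RT, and further subfield genes from 0 (without RT8) to 5 (without CC8, with Nov, Pcp4 and Tox3 among them) in FC against CC and from 0 to 1 in RT against CC. With 10 factors 1 marker was called in FC against CC and 1 in FC against RT (Wfs1 in both), and 3 further genes (Pcp4 among them) in FC against CC and 1 in RT against CC. Without FC3 and RT3, 3 further genes were called in FC against CC (Pcp4, Stxbp6 and Synpr) and 2 in FC against RT (Stxbp6 and Synpr). In FC against CC 0 further genes were called with UQ factors alone (all libraries, with the block, or without FC3, RT3 or CC8), 1 factor, all tested genes as controls, the quasi-likelihood test or DESeq2.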
